A study of Mus musculus with 4 samples.

Results

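The nucleolus is the nuclear compartment in which ribosomal RNA is transcribed, cut, chemically modified and assembled with proteins into ribosomal subunits. Small nucleolar RNAs guide the modification as part of ribonucleoproteins, named snoRNPs. Box C/D snoRNPs direct methylation of ribose and H/ACA snoRNPs direct the change of uridine to pseudouridine. Intestinal crypt stem cells divide often, and dividing cells need a steady supply of new ribosomes. The 10 nucleolar genes described here were chosen by symbol from a table of 18436 gene rows: Ncl and Npm1, which encode the abundant nucleolar proteins nucleolin and nucleophosmin; Fbl, Nop56 and Nop58, which encode box C/D proteins; Dkc1, Nhp2 and Nop10, which encode H/ACA proteins; and Rrs1 and Bop1, which encode assembly factors of the large ribosomal subunit. All 10 genes had a row and all 10 passed the filter on low values (averaging 0.5 FPKM or more across mice), as did 12621 rows in all. FPKM counts sequenced fragments relative to transcript length and to the total number mapped.

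RNA was sequenced from intestinal cells sorted for high GFP, which marks cells that transcribe Lgr5, a Wnt-responsive receptor gene of crypt base stem cells. The Lgr5-WT group held 2 Lgr5-GFP-CreERT2 mice and the Lgr5-CREPTKO group held 2 Lgr5-GFP; CREPT fl/fl mice, all C57BL/6. Tamoxifen, which activates the Cre enzyme, was injected into all 4 mice, controls included, on 5 days in a row (1 mg each day), and cells were sorted on day 7. CREPT is the protein of Rprd1b, which binds the tail of RNA polymerase II. The study used young adult mice of both sexes, and the labels do not state the age or sex of each of these 4. The Lgr5-GFP-CreERT2 allele drives GFP and Cre from the Lgr5 locus and is expressed in a mosaic of crypts. In Lgr5-CREPTKO cells some Rprd1b remained. It was listed at 6.65 and 7.36 FPKM in Lgr5-CREPTKO mice against 17.7 and 18.1 FPKM in Lgr5-WT mice (log2 fold change −1.29, SE 0.09, adjusted p = 0.0280 by limma). With any 1 mouse left out, no gene in the table was called, Rprd1b included, whose log2 fold change then ran from −1.36 to −1.23.

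The question put to the table was whether deletion of CREPT changed the mRNA of these nucleolar genes in Lgr5-GFP cells. None of the 10 passed an adjusted p of 0.05 (limma, Benjamini-Hochberg over 12621 genes), where 2.67% of all genes tested did so as lower and 0.412% as higher. At an unadjusted p of 0.05, Nhp2 and Nop10 were lower and none of the 10 was higher, where 15.2% of all genes tested were lower and 9.27% higher at that limit. Without Lgr5-WT mouse 1 the counts were 1 lower (Nhp2) and 2 higher (Nop56 and Dkc1), and without Lgr5-WT mouse 2 they were 1 lower (Nhp2) and 0 higher. On the log2(FPKM + 0.5) scale, the 10 fold changes ran from −0.39 for Nhp2 to 0.20 for Nop56. Their median was 0.01, against −0.01 for all genes tested. Over the 10 genes the 95% intervals reached from −0.67 to 0.44, so that larger changes lay outside them. For 7 of the 10 genes, neither genotype's range reached into the other's. Ncl, Npm1, Nhp2 and Nop10 lay lower in both Lgr5-CREPTKO mice, where 31.0% of all genes tested did, and Nop56, Dkc1 and Rrs1 lay higher, where 25.6% of all genes did. In sorted bulk cells, fewer cells of a kind and less RNA per cell cannot be told apart.

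**Figure D1:**
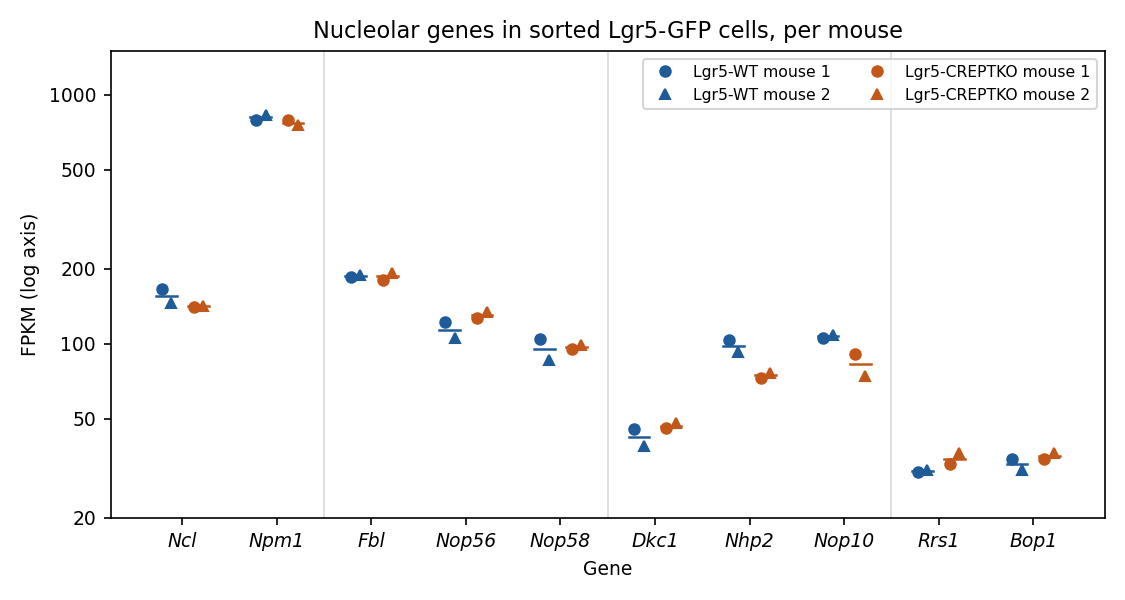
FPKM of the 10 nucleolar genes in each of the 4 mice on a log axis, with circles for mouse 1, triangles for mouse 2 and short lines for the mean of each genotype; vertical lines part the nucleolar, box C/D, H/ACA and large subunit genes. Npm1 stood highest in all 4 mice, and Nhp2 and Nop10 show the widest gap between genotypes.

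The 10 genes were well expressed in every mouse. The lowest of them, Rrs1, had a mean of 32.7 FPKM over the 4 mice, above 86.1% of all rows. Npm1 stood first at 791 FPKM, followed by Fbl at 187, Ncl at 149, Nop56 at 122, Nop58 at 96.2, Nop10 at 94.97, Nhp2 at 86.4, Dkc1 at 44.6, Bop1 at 34.1 and Rrs1 at 32.7 FPKM. FPKM is scaled to transcript length, which lets levels be set side by side, but the lengths the authors used are not known, and the order rests on them. Neighbours in that order had separate ranges over the 4 mice except Nop58 and Nop10, Nop10 and Nhp2, and Bop1 and Rrs1. Together the 10 genes made up 0.341% and 0.332% of all FPKM in Lgr5-WT mice and 0.343% and 0.337% in the Lgr5-CREPTKO mice. The summed share thus overlapped between the genotypes. The summed FPKM itself did not, at 1692 and 1656 in Lgr5-WT mice against 1608 and 1595 in Lgr5-CREPTKO mice. The FPKM total of all rows was also lower in both Lgr5-CREPTKO mice, at 468830 and 473662 against 495758 and 499327 in Lgr5-WT mice. Npm1 made up the largest part of each sum of the 10 genes.

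Ncl encodes nucleolin, an RNA-binding protein of the dense part of the nucleolus that takes part in ribosomal RNA transcription and processing. Ncl measured 166 and 146 FPKM in Lgr5-WT mice against 141 and 142 FPKM in Lgr5-CREPTKO mice. Both Lgr5-CREPTKO values lay below the lower Lgr5-WT value, but the 2 Lgr5-WT mice differed from each other (0.18 on the log2 scale) by more than the genotypes did. The log2 fold change was −0.14 (95% interval −0.36 to 0.08, adjusted p = 0.391 by limma). Npm1 encodes nucleophosmin, a chaperone that builds the outer, granular part of the nucleolus. Npm1 measured 794 and 827 FPKM in Lgr5-WT mice against 788 and 756 FPKM in Lgr5-CREPTKO mice. The nearest values of the genotypes were 788 and 794 FPKM, and the log2 fold change of −0.07 (95% interval −0.26 to 0.12) turned to 0.01 when each mouse was scaled to the same FPKM total. For Npm1, 24.3% of the 50-base words in its transcripts occur in other annotated genes, among them processed copies such as Gm9118, so that reads may have been divided between them.

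The box C/D proteins form a complex around each guide RNA in which fibrillarin, from Fbl, is the methyltransferase and Nop56 and Nop58 are the paired scaffold proteins. Fbl measured 186 and 188 FPKM in Lgr5-WT mice against 181 and 192 FPKM in Lgr5-CREPTKO mice. The Lgr5-WT values lay between the Lgr5-CREPTKO values, and the 95% interval of the log2 fold change ran from −0.18 to 0.17 around −0.01, a sign that turned under each of the 3 other scalings. This was the narrowest interval among the 10 genes, although 19% of its 50-base words occur in other genes, as do 18.6% of those of Nop56. Nop56 measured 122 and 106 FPKM in Lgr5-WT mice against 127 and 134 FPKM in Lgr5-CREPTKO mice. Both Lgr5-CREPTKO mice were higher, by a mean log2 fold change of 0.20 (95% interval −0.04 to 0.44, adjusted p = 0.269 by limma), while the 2 Lgr5-WT mice differed from each other by 0.21. Nop58 measured 105 and 86.1 FPKM in Lgr5-WT mice against 94.9 and 98.8 FPKM in Lgr5-CREPTKO mice. The Lgr5-CREPTKO values lay between the Lgr5-WT values, which differed by 0.28, the widest gap between those mice among the 10 genes. The log2 fold change of Nop58 was 0.03 (95% interval −0.26 to 0.31). Within each mouse, the ratio of Nop56 to Fbl was 0.656 and 0.561 in Lgr5-WT and 0.701 and 0.699 in Lgr5-CREPTKO, and that of Nop58 to Fbl was 0.564 and 0.457 against 0.524 and 0.515. The first ratio was separated by genotype and the second was not.

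The H/ACA proteins surround a guide RNA in which dyskerin, from Dkc1, is the pseudouridine synthase, and the small proteins Nhp2, Nop10 and Gar1 complete the particle. Dkc1 measured 45.6 and 38.9 FPKM in Lgr5-WT mice against 45.8 and 48.0 FPKM in Lgr5-CREPTKO mice. Only 0.19 FPKM parted the nearest values of the genotypes, and the log2 fold change was 0.15 (95% interval −0.10 to 0.41, adjusted p = 0.405 by limma). Nhp2 measured 103 and 92.9 FPKM in Lgr5-WT mice (98.1 ± 7.28, SD, n = 2) against 73.1 and 76.6 FPKM in Lgr5-CREPTKO mice (74.8 ± 2.47, SD, n = 2). Both Lgr5-CREPTKO mice lay well below both Lgr5-WT mice. The log2 fold change of Nhp2 was −0.39 (95% interval −0.60 to −0.18), with an unadjusted limma p of 0.00528 and an adjusted p of 0.0741. Nop10 measured 106 and 109 FPKM in Lgr5-WT mice (107 ± 2.18, SD, n = 2) against 91.0 and 74.2 FPKM in Lgr5-CREPTKO mice (82.6 ± 11.9, SD, n = 2). Its genotypes were also apart, but the 2 Lgr5-CREPTKO mice differed by 0.29 on the log2 scale. The log2 fold change of Nop10 was −0.38 (95% interval −0.67 to −0.09), with an unadjusted limma p of 0.0196 and an adjusted p of 0.131.

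The level of one H/ACA gene relative to another within a mouse does not depend on how the libraries were scaled. The ratio of Nhp2 to Dkc1 was 2.26 and 2.39 in the Lgr5-WT mice and 1.60 and 1.59 in the Lgr5-CREPTKO mice. The ratio of Nop10 to Dkc1 was 2.32 and 2.80 in the Lgr5-WT mice and 1.99 and 1.54 in the Lgr5-CREPTKO mice. Both ratios were lower in both Lgr5-CREPTKO mice, with a log2 difference of −0.54 in each case. The ratio of Nhp2 to Nop10 overlapped between genotypes, at 0.976 and 0.853 against 0.802 and 1.03. Gar1, the remaining core protein, measured 45.3 and 47.4 FPKM in Lgr5-WT mice against 43.9 and 43.5 FPKM in Lgr5-CREPTKO mice, and its ratio to Dkc1 was 0.993 and 1.22 against 0.960 and 0.905. With 2 mice against 2, an exact two-sided permutation test cannot give a p below 0.333. Of the 11 ratios computed, 7 reached that value: those of Nhp2, Nop10 and Gar1 to Dkc1, of Nop56 to Fbl and to Nop58, and of Wdr12 and Pes1 to Bop1. Ratios that share a gene are not independent, and the share of all gene pairs reaching that value was not computed. Among single genes tested, 31.0% lay lower and 25.6% higher in both Lgr5-CREPTKO mice.

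**Figure D2:**
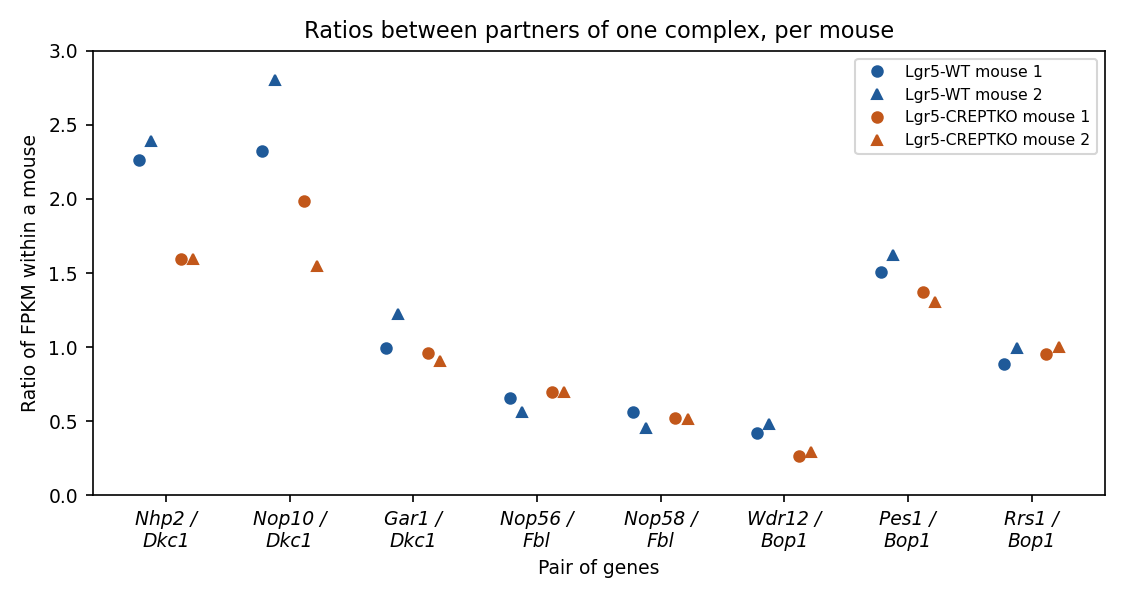
Ratio of FPKM between partners of one complex within each mouse, on an axis from 0; circles are mouse 1 and triangles mouse 2 of each genotype. Nhp2 and Nop10 relative to Dkc1, and Wdr12 relative to Bop1, lie lower in both Lgr5-CREPTKO mice, and Nop58 relative to Fbl overlaps.

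Since Nhp2 and Nop10 had the lowest fold changes of the 10 and Dkc1 one above 0, the sequence before the annotated start of each of these H/ACA genes is shown, with GC boxes (GGGCGG or its reverse complement) and the core of the ETS site (TTCCGG or its reverse complement) in capitals. The sequences are from RefSeq on GRCm38.p6, 250 bases up to the base before the start, read in the direction of the gene. They lie at chr11:51619523-51619772 (plus strand) for Nhp2, chr2:112261676-112261925 (plus strand) for Nop10 and chrX:75095604-75095853 (plus strand) for Dkc1.
Nhp2: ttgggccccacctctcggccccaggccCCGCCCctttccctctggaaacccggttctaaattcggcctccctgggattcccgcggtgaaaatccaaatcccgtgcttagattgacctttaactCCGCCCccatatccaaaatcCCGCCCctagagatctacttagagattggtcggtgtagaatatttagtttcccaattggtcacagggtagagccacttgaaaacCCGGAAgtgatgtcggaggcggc
Nop10: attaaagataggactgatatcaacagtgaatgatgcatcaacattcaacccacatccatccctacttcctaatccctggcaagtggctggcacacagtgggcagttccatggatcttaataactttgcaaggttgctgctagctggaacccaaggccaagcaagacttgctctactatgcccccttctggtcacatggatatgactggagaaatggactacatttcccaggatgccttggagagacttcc
Dkc1: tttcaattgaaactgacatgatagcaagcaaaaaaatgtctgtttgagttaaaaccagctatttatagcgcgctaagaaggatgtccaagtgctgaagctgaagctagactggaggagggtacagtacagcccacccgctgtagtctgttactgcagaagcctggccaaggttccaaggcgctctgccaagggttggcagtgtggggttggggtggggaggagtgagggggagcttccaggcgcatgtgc
The Nhp2 sequence holds 3 GC boxes and 1 ETS core, and those of Nop10 and Dkc1 hold none of either. In the GENCODE annotation Nhp2 starts earlier, at chr11:51619735, and the ETS core lies inside that transcript. Of the 6 genes with an entry (Nop58, Ncl, Nop10, Nop56, Nhp2 and Dkc1), 4 hold a GC box and 2 an ETS core, where 32.7% and 12.03% of 32851 such windows do. The Nop58 and Nop56 windows end at chr1:59685005 and chr2:130274411, inside the RefSeq spans of these genes. The E-box bound by Myc and its partner Max, CACGTG, which reads the same on both strands, is in none of the 6 and in 6.02% of all windows. These are matches of letters, and no binding was measured here.

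In RefSeq on GRCm38.p6, Nhp2 spans chr11:51619773-51623718, Nop10 chr2:112261926-112262898, Ncl chr1:86344719-86359455, Npm1 chr11:33152498-33164142, Fbl chr7:28168893-28179269, Nop56 chr2:130274367-130279313, Nop58 chr1:59684961-59711510, Dkc1 chrX:75095854-75109776, Rrs1 chr1:9545408-9547455 and Bop1 chr15:76452988-76477249. Exon numbers and transcript lengths were taken from GENCODE models, which differ in their ends. Nhp2 has 4 exons and 1042 bases there, and Nop10 has 2 exons and 1109 bases. The GENCODE models of Nop10, to chr2:112263269, and of Nop58, to chr1:59719044, run past the RefSeq ends, so that the RefSeq transcript of Nop10 is shorter than the length used for its class and its correction. Rrs1 is a single exon, and the others have 9 to 16. Nhp2 and Nop10 have the shortest coding sequences of the 10 genes, 459 and 192 bases. Across all genes tested, fold change moved with transcript length: the median log2 fold change was −0.15 among 1204 genes with transcripts of 1000 to 1500 bases, −0.05 at 2000 to 3000 bases (2696 genes) and 0.13 above 5000 bases (2166 genes). Correcting the values for GC content and transcript length, a step added after the data were seen, brought Nhp2 from −0.39 to −0.21 (adjusted p = 0.284 by limma) and Nop10 from −0.38 to −0.18 (adjusted p = 0.455 by limma). Neither then passed an unadjusted p of 0.05. With coding length in place of transcript length, Nhp2 stood at −0.20 and Nop10 at −0.07. The log2 difference in the ratio of Nhp2 to Dkc1 was then −0.45 under the first correction and −0.37 under the second, and that of Nop10 to Dkc1 −0.42 and −0.24. Nop56, Dkc1 and Rrs1 stayed higher under both corrections, at 0.28, 0.24 and 0.21 under the first, with no adjusted p under 0.05. Fbl and Npm1 turned to 0.13 and 0.11, and Nop58 turned to −0.10 under the first correction only. Nop58 and Ncl were given transcripts of 9507 and 8202 bases, the longest of the 10, against coding sequences of 1608 and 2121 bases. The annotation, not the reads, fixed these lengths. The part that length plays in the fold changes was not tested beyond these corrections.

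**Figure D3:**
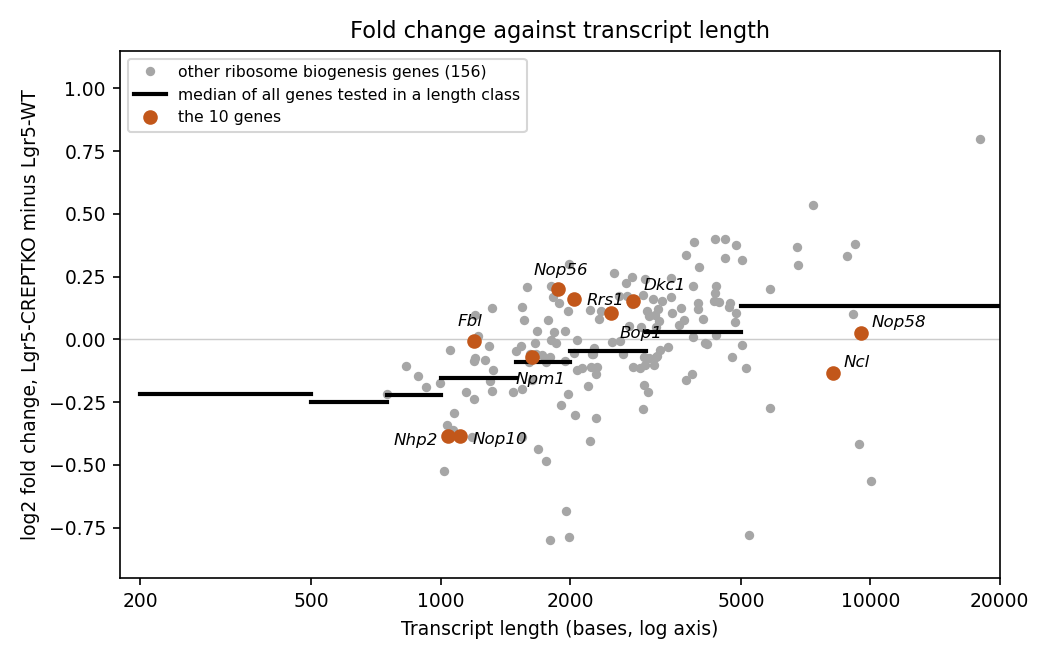
Log2 fold change of Lgr5-CREPTKO minus Lgr5-WT on log2(FPKM + 0.5) against transcript length on a log axis, for the 10 nucleolar genes (large named points), 156 other ribosome biogenesis genes (small points) and the median of all genes tested in each of 8 length classes (bars). Class medians rise from −0.25 at 500 to 750 bases to 0.13 above 5000 bases; Nhp2 and Nop10, near 1000 bases, lie below the median of their class.

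**Figure D4:**
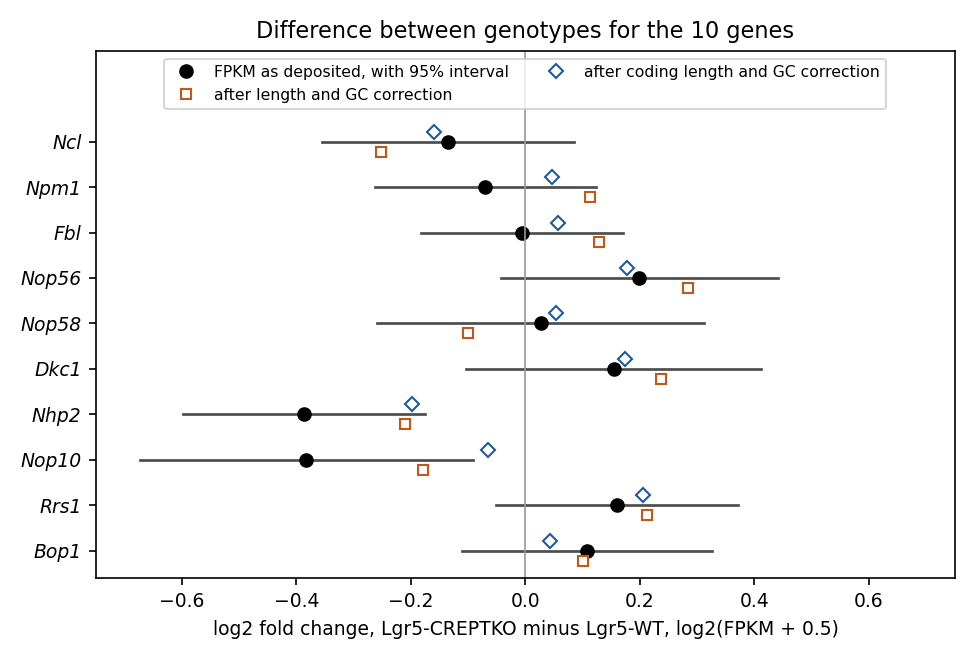
Log2 fold change of Lgr5-CREPTKO minus Lgr5-WT for each of the 10 genes, with filled circles and 95% intervals from limma for the FPKM as deposited, and open symbols after the corrections for transcript length or coding length with GC content. The intervals of Nhp2 and Nop10 alone leave out 0, and their open symbols lie nearer to 0 than the filled ones.

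Rrs1 and Bop1 encode assembly factors of the large ribosomal subunit. Rrs1, with Rpf2, brings the 5S ribosomal RNA with the proteins Rpl5 and Rpl11 to the growing particle, and Bop1 forms the PeBoW complex with Pes1 and Wdr12. Rrs1 measured 30.6 and 31.1 FPKM in Lgr5-WT mice against 32.9 and 36.3 FPKM in Lgr5-CREPTKO mice. Both Lgr5-CREPTKO mice were higher, and the log2 fold change was 0.16 (95% interval −0.05 to 0.37, adjusted p = 0.302 by limma). Bop1 measured 34.5 and 31.2 FPKM in Lgr5-WT mice against 34.5 and 36.3 FPKM in Lgr5-CREPTKO mice. These ranges overlapped, and the log2 fold change was 0.11 (95% interval −0.11 to 0.33). Its partner Wdr12 measured 14.5 and 15.1 FPKM in Lgr5-WT mice against 9.14 and 10.6 FPKM in Lgr5-CREPTKO mice, a log2 fold change of −0.56 (SE 0.11, adjusted p = 0.0631 by limma), and −0.69 after the length and GC correction. The ratio of Wdr12 to Bop1 was 0.419 and 0.483 in Lgr5-WT mice and 0.265 and 0.291 in Lgr5-CREPTKO mice. Pes1 measured 51.9 and 50.6 FPKM against 47.3 and 47.3 FPKM, a log2 fold change of −0.11. Rpf2 overlapped between genotypes, at 19.3 and 19.4 against 18.4 and 19.96 FPKM.

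Beyond the 10 genes, 156 other ribosome biogenesis genes from 6 lists were tested, and 1 was called lower and 0 higher at an adjusted p under 0.05, beside 2.67% and 0.412% of all genes tested. At an unadjusted p under 0.05, 23 were lower and 19 higher, or 14.7% and 12.2%, beside 15.2% and 9.27% of all genes tested. Their median log2 fold change was −0.02. The gene called was Nol7, which encodes a nucleolar protein, at 40.2 and 37.9 FPKM in Lgr5-WT mice against 20.8 and 23.8 FPKM in Lgr5-CREPTKO mice (log2 fold change −0.80, adjusted p = 0.0363 by limma; −0.63, adjusted p = 0.0520 after the length and GC correction). With 1 mouse left out, its log2 fold change ran from −0.90 to −0.70 with no call. The direct snoRNP partners had 12 genes tested, of which 4 were lower and 8 higher, with a median of 0.06 and no call. Among them, Snu13, which binds the kinked box C/D RNA first, was at 105 and 103 against 100 and 90.7 FPKM. The H/ACA assembly factors Naf1 and Shq1 were at 13.0 and 12.3 against 14.7 and 15.4 FPKM, and at 5.16 and 6.02 against 7.33 and 6.66 FPKM. Both lay above the Lgr5-WT range in both Lgr5-CREPTKO mice. Of these 12 partners, 4 lay above that range and 4 below it, Snu13 and Gar1 among the latter. Of all genes tested, 25.6% lay above and 31.0% below. The PeBoW and 5S partners had 7 of 9 genes lower, with a median of −0.06, and no call. RNA polymerase I transcription had 8 of 12 genes lower, with a median of −0.07, and the processome of the small subunit had 25 of 51 lower, with a median of 0.01, neither with a call. The list of large subunit assembly factors, as drawn up here, had 28 of 58 lower with a median of 0.02. Nol7 was counted in that list, and which subunit it serves was not examined here. In the RNA exosome, which trims ribosomal RNA from its 3′ end, 12 of 14 genes were lower with a median of −0.12 and no call. Of all genes tested, 6605 of 12621 were lower. After the length and GC correction, 3 of 9 PeBoW and 5S partners were lower (median 0.09), and 8 of 13 exosome genes (median −0.09). For snoRNP partners it was 1 of 11, and for RNA polymerase I transcription 7 of 12. The small and large subunit lists then had 17 of 49 and 19 of 56 lower.

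Length moved with the fold change in these lists as well. Among the 24 biogenesis genes with transcripts under 1500 bases, 21 were lower and the median log2 fold change was −0.17, beside −0.19 for the 2081 genes of that length. Among the 62 with transcripts of 3000 bases and over, 18 were lower and the median was 0.11, beside 0.06 for 5700 genes. Spearman's rho between length and log2 fold change was 0.48 over the 156 biogenesis genes and 0.38 over 11928 genes, all of which share the same 4 libraries. After the length and GC correction, the medians of the short and long classes of biogenesis genes were 0.05 and 0.10.

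**Figure D5:**
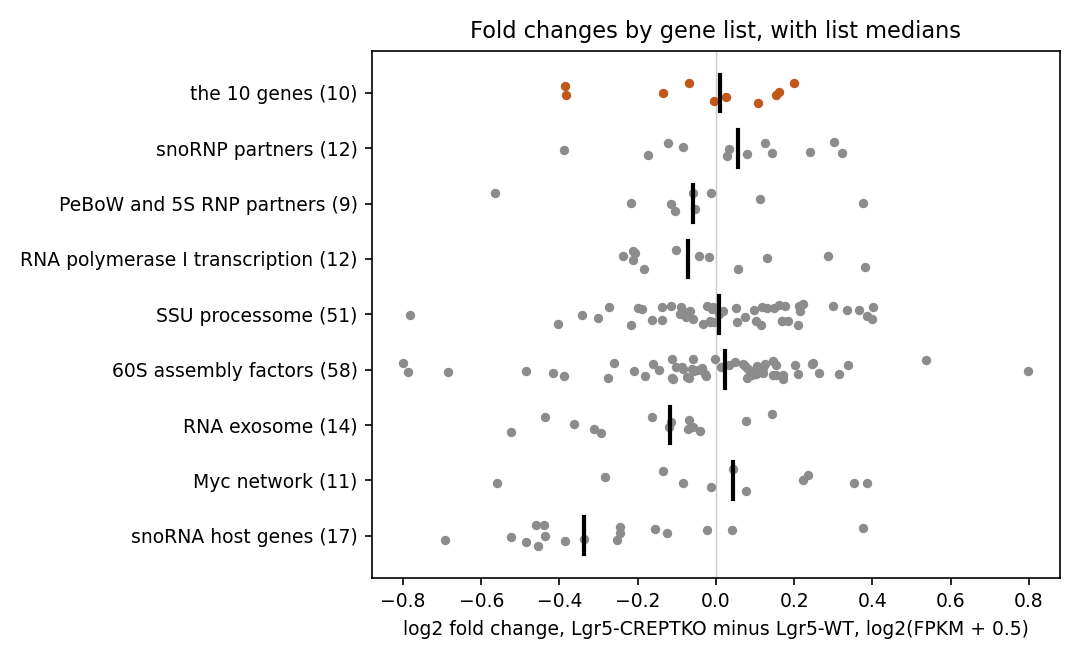
Log2 fold change of Lgr5-CREPTKO minus Lgr5-WT for each gene (points) in the nucleolar set and 8 further lists, with the number of genes tested in parentheses and a bar at each list's median; the vertical scatter within a row has no meaning. Medians lie between −0.12 and 0.06 in every list except the snoRNA host genes, at −0.34.

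Genes of ribosome biogenesis are well known targets of Myc. Myc measured 74.7 and 91.0 FPKM in Lgr5-WT mice against 102 and 109 FPKM in Lgr5-CREPTKO mice, higher in both, with a log2 fold change of 0.35 (95% interval 0.06 to 0.65, adjusted p = 0.151 by limma). Its partner Max overlapped, at 36.4 and 41.9 against 40.2 and 40.4 FPKM. In the Myc network, 5 of 11 genes were lower, the median was 0.04 and none was called.

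The proteins of the box C/D and H/ACA groups act on small nucleolar RNAs, several of which are released from introns of the nucleolar genes themselves. Rows for 5 of these were found, and they are shown with the conserved boxes in capitals: GATG, the core of box C, and CTGA, box D, in the box C/D RNAs, and the closing ACA in Snora75. The sequences are from the GENCODE M21 transcripts, on GRCm38.
Snord110, intron 3 of Nop56, chr2:130275506-130275573, plus strand: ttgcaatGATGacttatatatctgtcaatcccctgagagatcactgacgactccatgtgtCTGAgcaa
Snord57, intron 10 of Nop56, chr2:130278016-130278087, plus strand: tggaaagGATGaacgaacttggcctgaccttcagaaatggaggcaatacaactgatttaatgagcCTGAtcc
Snord70, intron 2 of Nop58, chr1:59691934-59692020, plus strand: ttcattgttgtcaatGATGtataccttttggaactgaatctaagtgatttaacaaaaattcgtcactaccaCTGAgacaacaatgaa
Snord11, intron 9 of Nop58, chr1:59704790-59704873, plus strand: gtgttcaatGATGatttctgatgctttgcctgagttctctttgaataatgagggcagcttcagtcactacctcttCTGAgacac
Snora75, intron 12 of Ncl, chr1:86351169-86351301, minus strand: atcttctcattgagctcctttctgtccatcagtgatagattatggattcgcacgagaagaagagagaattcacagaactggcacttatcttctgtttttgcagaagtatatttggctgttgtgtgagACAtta
Both boxes stand within 20 bases of the ends in 92.8% of 97 annotated Snord genes, and the ACA within 8 bases of the 3′ end in 95% of 40 Snora genes.

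Many of the snoRNA rows were close to the limit of detection, while the highest had a mean of 31.6 FPKM. For transcripts of 64 bases the smallest value above 0 was 1.95 and 1.92 FPKM in Lgr5-WT mice against 1.94 and 2.02 FPKM in Lgr5-CREPTKO mice, and for transcripts of 69 bases it was 0.81 and 1.63 against 1.64 and 1.71 FPKM, so that values of this size may stand for very few reads. At 109 bases the smallest values were 0.33 and 0.43 against 0.73 and 0.69 FPKM. At 119 bases they were 0.02 and 0.02 against 0.04 and 0.04 FPKM. The relative depth of the libraries was not settled from these values. Snord57 was listed at 12.2 and 7.98 FPKM in Lgr5-WT mice against 2.01 and 8.37 FPKM in Lgr5-CREPTKO mice. Snord110 was listed at 7.15 and 0 against 0 and 2.47 FPKM, Snord70 at 0 and 3.20 against 0 and 0 FPKM, and Snord11 at 0 and 0 against 2.01 and 0 FPKM. Snora75 was at 4.05 and 2.66 against 3.35 and 2.09 FPKM. All 5 overlapped between genotypes. Over the 93 snoRNA rows tested, 45 were lower and 48 higher, with a median log2 fold change of 0.02, and 44 of 104 rows held a 0 in at least 1 mouse. At an unadjusted p under 0.05 by limma, 12 of the 93 were lower and 4 higher, beside 15.2% and 9.27% of all genes tested. Snord72, named after its values were seen, was the 1 row called, at 2.28 and 2.25 against 6.79 and 11.8 FPKM (log2 fold change 1.78, adjusted p = 0.0450 by limma). Of all genes tested, 0.412% were called higher and 2.67% lower. Without the filter no gene was called, Snord72 included. Summed over all 104 rows, the snoRNAs reached 702 and 610 FPKM in Lgr5-WT mice against 591 and 643 FPKM in Lgr5-CREPTKO mice, which overlapped.

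Genes known mainly for the snoRNAs in their introns, the Snhg family and Gas5, lay lower. Of 17 tested, 15 had a log2 fold change below 0, with a median of −0.34, where 6605 of 12621 genes tested were below 0. Of the 17, 2 were called, where 2.67% of all genes tested were called lower. Snhg1 was at 164 and 173 FPKM in Lgr5-WT mice against 126 and 118 FPKM in Lgr5-CREPTKO mice (log2 fold change −0.46, adjusted p = 0.0493 by limma). Snhg8 was at 35.3 and 35.2 against 25.5 and 25.7 FPKM (log2 fold change −0.45, adjusted p = 0.0473 by limma). After the length and GC correction these stood at −0.34 and −0.18, with adjusted p = 0.0959 and 0.221 by limma, and the list's median at −0.17. For noncoding genes that correction used the longest annotated transcript, not one matched to RefSeq. Neither Snhg1 nor Snhg8 was called with any 1 mouse left out, with log2 fold changes from −0.51 to −0.42 for Snhg1 and from −0.46 to −0.45 for Snhg8. Both calls were also lost under each of the 3 other scalings (adjusted p by limma of 0.0587 to 0.0657 for Snhg1 and 0.0532 to 0.0619 for Snhg8), with the replicate block (0.0732 and 0.0760), without the filter and without the intensity trend. Nop56, Nop58 and Ncl, which also carry snoRNAs, had log2 fold changes of 0.20, 0.03 and −0.14.

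The sorted cells carried stem cell markers, whose summed level was 6148 and 6347 FPKM in Lgr5-WT mice against 6684 and 6893 FPKM in Lgr5-CREPTKO mice, of which Olfm4 alone made up 4932 and 5077 against 5181 and 5351 FPKM. Of the 12 stem cell markers 11 were higher, with a median log2 fold change of 0.21; 6 were higher at an unadjusted p under 0.05, where 9.27% of all genes tested were, and none was called. The 14 proliferation markers summed to 930 and 814 FPKM in Lgr5-WT mice 1 and 2 and to 900 and 799 FPKM in Lgr5-CREPTKO mice 1 and 2. Of these markers 8 were lower and none was called. At an unadjusted p under 0.05 by limma, 3 were lower and 0 higher, where 15.2% and 9.27% of all genes tested were. Marker lists of other cells differed more: of 12 enteroendocrine markers 11 were lower and 6 were called, of 9 goblet markers all 9 were lower and 2 called, and of 7 tuft markers all 7 were lower with none called, where 2.67% of all genes tested were called lower. Their summed levels were 238 to 330 against 92.7 to 106 FPKM, 1485 to 2473 against 814 to 945 FPKM, and 24.8 to 53.2 against 7.58 to 19.7 FPKM. The Paneth (854 to 2616 FPKM), enterocyte (429 to 727 FPKM) and leukocyte and stromal lists (285 to 1174 FPKM) overlapped between genotypes and had no call. In the last list Cd74 alone gave 282 to 1165 FPKM, and Col1a1, Col1a2, Pecam1, Pdgfra and Acta2 were under 1 FPKM in every mouse. The part of these cells in the levels of the nucleolar genes was not tested.

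The genes whose profile over the 4 mice was nearest to the median profile of the 10 nucleolar genes, by Euclidean distance of centred log2(FPKM + 0.5) among 6674 genes averaging 10 FPKM or more, were Kbtbd2 (distance 0.012), Bfar (0.016), Gle1 (0.019), Psmd2 (0.019) and Cnot6 (0.019). Psmd2, for example, was at 83.7 and 80.3 FPKM in Lgr5-WT mice against 80.9 and 84.7 FPKM in Lgr5-CREPTKO mice. These 5 had log2 fold changes from 0.01 to 0.03.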

How the data were processed

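The authors deposited 1 table of FPKM for 4 libraries. Per the study's methods, Bowtie2 placed BGISEQ reads on RefSeq transcripts (GRCm38.p6) and RSEM gave the gene levels, and the processing notes also name HISAT. Versions and the library's selection of RNA are not given in the sources used here. The labels and the mouse methods name sorted Lgr5-GFP cells as the source of these libraries, while the RNA-seq methods name crypts and intestines. FPKM values carry no read counts, so the absolute depth is unknown and 2 mice per genotype limit the precision.

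Values were tested as log2(FPKM + 0.5) with limma 3.58.1 (R 4.3.3; lmFit, eBayes with an intensity trend) in place of the authors' count model, for the 12621 genes averaging 0.5 FPKM or more, with Benjamini-Hochberg adjustment over all of them. A fold change on this scale understates changes of low genes. The fit was also run on simulated data with no shift by transcript length, so that run does not cover such a shift. The p-values rest on the spread between 2 mice per genotype, which eBayes draws towards the spread of other genes at a similar level. Alternatives were other pseudocounts, filters and scalings, no trend, a replicate block, each mouse left out, and small RNAs left out; length and GC corrections (loess, span 0.3) were added later. Transcripts were the longest GENCODE M21 ones matched to a RefSeq mRNA entry. Genes without such a match were given the longest protein-coding transcript, or else the longest of any kind. These stand in for the transcript lengths behind the authors' FPKM, which are not given in the sources used here. Of 288 listed genes, 7 were found through a RefSeq synonym and 6 were not found. Named were all 10 genes, Rprd1b, direct partners, Myc and Max, called genes of each pathway list (those of the marker lists are counted only), member-hosted snoRNAs and the 5 nearest profiles. The 10 genes and all lists were chosen with earlier results of these data known. Promoter windows were available for 6 of the 10.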

Additional observations from a re-analysis of the deposited data

How the results depend on the processing

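The count of the 10 nucleolar genes called at an adjusted p under 0.05 was 0 under each of the 18 alternatives, and their smallest adjusted p was 0.0599, for Nhp2, with transcripts of at least 200 bases; with each mouse left out, no gene of the whole table was called, so those fits say nothing about single calls. At an unadjusted p under 0.05, 2 were lower and 0 higher, which became 1 (Ncl) and 2 (Nop56 and Rrs1) with the length and GC correction, 0 and 1 with the coding length correction, 2 and 2 with scaling to the same total, and 2 and 1 with quantile normalization. Ncl, Nop56, Dkc1, Nhp2, Nop10, Rrs1 and Bop1 kept their direction in all 18. The median log2 fold change of the 10, 0.01, moved to 0.0886 with each mouse scaled to the same total, 0.0759 with quantile normalization and 0.11 with the length and GC correction; with 1 mouse left out it ran from −0.0219 to 0.0665, the highest without Lgr5-WT mouse 1. Npm1 turned to 0.00834 and 0.0288 with scaling to the same total and quantile normalization, and to 0.11 and 0.0472 with the length and coding length corrections. Fbl turned to 0.0726, 0.0195 and 0.0636 with scaling to the same total, median centring and quantile normalization, to 0.13 and 0.0563 with the corrections, and with 1 mouse left out it ran from −0.0475 to 0.0363. Nop58 turned to −0.10 with the length and GC correction and ran from −0.12 to 0.17 with 1 mouse left out. Scaling to the same total moved the median of all genes tested from −0.01 to 0.06.

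Of the other biogenesis genes, 1 was called lower. That count was 0 without a filter, without the intensity trend, with the replicate block and with the length and GC correction, 2 with small RNA rows left out and with the coding length correction, 3 with transcripts of at least 200 bases, and 5 with a mean of at least 5 FPKM. It was 0 to 0 with each mouse left out. The count called higher, 0, was 1 with scaling to the same total, with small RNA rows left out and with transcripts of at least 200 bases, and 2 with a mean of at least 5 FPKM. Rprd1b, at −1.29, lost its call without a filter (adjusted p = 0.116 by limma) and without the trend (adjusted p = 0.0623 by limma), and ran from −1.36 to −1.23 with 1 mouse left out. Over the whole table, 337 lower and 52 higher calls became 0 and 0 without a filter, where low genes enter the fit (2250 lower and 1320 higher at an unadjusted p under 0.05), 4 and 0 without the trend, 168 and 15 with the replicate block, and 181 and 19 with the length and GC correction. Replicate numbers name different animals, and over all genes deviations of same-numbered mice did not move together (r = −0.03 across genes). A value over all genes cannot exclude a shift shared by same-numbered mice in some genes, so whether the numbers mark pairs was not settled. Over the alternatives, adjusted p from limma ran from 0.0203 to 0.305 for Nol7, 0.0366 to 0.311 for Snhg1, 0.0355 to 0.305 for Snhg8, 0.0436 to 0.328 for Wdr12, 0.0599 to 0.305 for Nhp2 and 0.107 to 0.745 for Nop10. The causes of these shifts were not tested.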
